A study of Nematostella vectensis with 16 samples.

Results

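Copper-exposed Nematostella vectensis, the starlet sea anemone of brackish marshes and a common laboratory cnidarian, were set directly against zinc-exposed animals. The comparison was formed from the libraries labelled Cu and Zn, 3 of each, which are 6 of the 16 libraries in the series. Each is a pool of 5 whole anemones held for 24 h with CuCl2 or ZnCl2 at 100 µg/L. The other 10 libraries are 3 HgCl2 pools and 3 CdCl2 pools at the same dose and time and 4 untreated control groups of anemones, and they took no part in the contrast itself. The number of animals in a control group is not spelled out in the labels. All animals were 2 to 4 months old and were raised at 18 °C in the dark in artificial seawater of 12.5 ppt. No strain, genotype or sex is given in the labels, and they name no difference between the Cu and Zn groups other than the metal salt. Each group stands for 1 dose and 1 time, and the labels do not say whether the dose is the mass of metal or of salt. In pools of whole animals, a change in transcript level per cell and a change in the number of cells that carry the transcript cannot be told apart.

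Copper and zinc are both nutrients that animals cannot do without, and both are toxic in excess. Copper switches between oxidation states and serves as the redox centre of enzymes such as cytochrome c oxidase, and free copper can drive the formation of reactive oxygen species. Zinc does not change its oxidation state in cells and serves as a structural or catalytic ion in many enzymes and in zinc finger proteins. In animals generally, surplus copper and zinc are held in check by membrane transporters and by metallothioneins, and copper also by dedicated chaperone proteins. Mercury and cadmium have no known nutritional role in animals and bind strongly to thiol groups. Copper and zinc have nearly the same atomic mass, so equal doses by mass of metal are nearly equal by number of atoms.

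Raw counts per gene model totalled 5698389 to 7200099 in the Cu libraries and 6250774 to 7955616 in the Zn libraries. Of 27273 gene models, 16276 passed a filter on low counts and were tested. Levels are given as CPM, which sets each count relative to its library's size after TMM scaling for composition. None of the identifiers comes with a gene name, and 0 of 27273 matched the RefSeq gene table, so genes are described by number, size and level, and 4 are named by identifier. No library was a copy of another: between pools of the same metal the chi-square of the counts was 6.06 to 8.78 times its degrees of freedom in all 6 pairs.

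Before the contrast is described, a pair of libraries stood apart. In 112 genes Cu 3 and Zn 3 both lay at least 2-fold above the other 4 libraries, whereas the other 8 combinations of a Cu and a Zn library gave 0 to 6 such genes. These 112 genes summed to 1430 CPM in Cu 3 and 1461 CPM in Zn 3, against 222 to 390 CPM in the other 4 libraries. Their median log2 fold change between Cu and Zn was -0.02, which follows in part from choosing genes high in a library of each metal. Cu 3 alone lay at least 4-fold above the other 5 libraries in 26 genes, which summed to 160 CPM in Cu 3 and to 5.96 to 14.3 CPM in the other 5, whereas the other libraries had 0 to 3 such genes each. Neither set held a gene called between Cu and Zn by edgeR or DESeq2, and neither held one at an unadjusted p under 0.05. Both sets were chosen for a wide spread within a group, so the lack of calls follows in part from the choice. Results are therefore also given without these libraries where they differ.

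Copper differed from zinc mainly by higher levels. Of the 16276 genes tested, 459 (2.82%) were higher in Cu pools than in Zn pools and 128 (0.786%) were lower, together 3.61% (quasi-likelihood F test of edgeR, p adjusted by Benjamini-Hochberg, under 0.05). Higher genes thus made up 78.2% of the calls. Among all tested genes 46.6% had a fold change above 0, and the median log2 fold change was -0.02. The median log2 fold change was 0.77 in the higher genes, a 1.71-fold difference, and -0.70 in the lower genes. Most differences were modest. Of the higher genes 152 differed at least 2-fold, 36 at least 4-fold and 9 at least 8-fold, and of the lower genes 37, 9 and 4 did so.

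**Figure D1:**
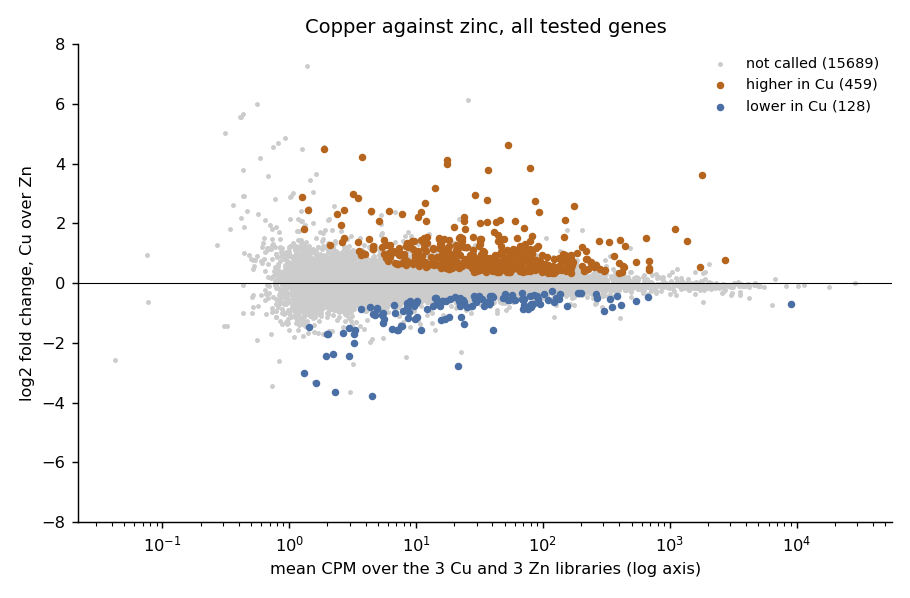
Log2 fold change of Cu over Zn for each tested gene (vertical axis) against its mean CPM over the 3 Cu and 3 Zn libraries (horizontal log axis), with the 459 genes called higher in Cu, the 128 called lower and the 15689 not called in separate colours. One gene without counts in these 6 libraries is not drawn, and smaller differences were called as the level rose.

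Calls were more frequent among abundant transcripts. In the highest of 3 equal parts of the genes by mean CPM, above 22.9 CPM, 5.51% were called higher in Cu and 1.14% lower. In the middle part the shares were 2.36% and 0.756%, and in the lowest part, below 6.21 CPM, they were 0.59% and 0.461%. The smallest log2 difference called higher was 0.33 in the highest part and 0.73 in the lowest, so no difference of under 1.5-fold was called among the scarcest genes.

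In the 459 higher genes the 3 Cu libraries all lay above the 3 Zn libraries, and in the 128 lower genes all below. Groups did not overlap in this way for 11.7% (Cu above) and 11.2% (Cu below) of all tested genes, so most genes with separated groups were not called. The uncalled ones had median log2 fold changes of 0.37 (1452 genes, Cu above) and -0.36 (1703 genes, Cu below).

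Fewer genes were called when any 1 pool was left out, which also leaves fewer samples, and 0 genes were called in the opposite direction. Without Cu 2, Zn 2 or Zn 3 the higher genes numbered 288, 301 and 301, and without any 1 of the other 3 libraries 319 to 379. The lower genes numbered 50 without Cu 2, 55 without Cu 3, 58 without Zn 2, 71 without Zn 3, 73 without Zn 1 and 86 without Cu 1. In these 6 fits 278 to 358 of the higher and 45 to 71 of the lower genes were among the 459 and 128. Without both Cu 3 and Zn 3, which stand apart as described above, 237 genes were called higher and 38 lower, of which 232 and 35 were among the 459 and 128. Of the 237 and 38 genes, 225 and 29 were also called in the same direction in mercury against control, a comparison described further on. In a test for a difference of more than 1.5-fold, 85 genes were higher in Cu and 6 lower.

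The called genes took a visible part of the transcript pool. The 459 higher genes held 5.21% ± 0.31 of all counts in Cu pools and 2.77% ± 0.031 in Zn pools (SD, n = 3 each). Their share was 4.97%, 5.56% and 5.12% in Cu 1, Cu 2 and Cu 3, and 2.79%, 2.74% and 2.78% in Zn 1, Zn 2 and Zn 3. The 10 most abundant of them alone held 1.66% ± 0.069 in Cu pools and 0.724% ± 0.027 in Zn pools (SD, n = 3 each). The 128 lower genes held 1.30% ± 0.092 of counts in Cu pools and 2.02% ± 0.074 in Zn pools (SD, n = 3 each), of which the 10 most abundant held 0.960% and 1.51%. These shares describe genes that were chosen for this difference.

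Among the Cu pools, Cu 1 showed the smallest difference in the higher genes. The median log2 CPM of the 459 genes above the Zn mean was 0.69 in Cu 1, 0.81 in Cu 2 and 0.79 in Cu 3. Cu 2 was the highest Cu pool in 51.2% of them and Cu 1 in 13.9%, whereas over all tested genes the shares were 35.8% and 30.2%. In the 128 lower genes the medians were -0.66, -0.73 and -0.69 in the same order. The median SD of log2 CPM among pools was 0.15 in Cu and 0.14 in Zn for the higher genes, 0.17 in Cu and 0.15 in Zn for the lower genes, and 0.19 in both over all tested genes. The test that chose the called genes favours a small spread.

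The largest increase belonged to v1g161288. It measured 61.3, 111 and 134 CPM in Cu 1, Cu 2 and Cu 3, against 4.06, 3.96 and 4.48 CPM in Zn 1, Zn 2 and Zn 3. The lowest Cu pool was thus far above the highest Zn pool, although the Cu pools differed from each other more than the Zn pools did. The log2 fold change came to 4.61 ± 0.25 (SE; edgeR adjusted p = 2.63e-08). In the other groups it had 350 to 370 CPM in Hg pools, 4.34 to 4.80 CPM in Cd pools and 2.73 to 5.0 CPM in controls. Copper pools therefore lay between mercury pools and the rest, and zinc pools within the range of the controls.

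The next largest increase was that of v1g127536, a transcript near the limit of detection outside Cu and Hg. It measured 2.21, 6.13 and 2.46 CPM in Cu 1, Cu 2 and Cu 3, against 0, 0.384 and 0 CPM in Zn 1, Zn 2 and Zn 3. The 3 Zn pools held 3 counts together, all in Zn 2, and the 3 Cu pools held 66, which is 25.2 times as many per library size (95% exact counting interval 8.25 to 125, edgeR adjusted p = 0.0017). Single libraries moved the fitted log2 fold change, which was 4.50 with all libraries and 3.90 without Cu 2. Without Zn 2 the remaining Zn pools held no count, and the fitted 7.55 then depends on the prior count and is no bound. Hg pools had 20.8 to 25.8 CPM, Cd pools 0 to 0.497 CPM and controls 0 to 0.161 CPM.

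Among the lower genes the largest decrease was that of v1g218972. It measured 0.851, 0.341 and 0.579 CPM in Cu 1, Cu 2 and Cu 3, against 16.9, 5.12 and 3.26 CPM in Zn 1, Zn 2 and Zn 3. Zn 1 stood well above the other Zn pools, yet all 3 Zn pools exceeded all 3 Cu pools. The log2 fold change came to -3.77 ± 0.82 (SE; edgeR adjusted p = 0.0196). It was -2.79 and called without Zn 1, whereas leaving out any 1 Cu pool ended the call, at adjusted p = 0.0584, 0.103 and 0.0917 without Cu 1, Cu 2 and Cu 3 (2.59e-05 to 0.103 over 15 alternative settings). Hg pools had 0.128 to 0.527 CPM, Cd pools 1.88 to 11.3 CPM and controls 3.38 to 7.24 CPM.

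The pattern of v1g59063 was tighter. It measured 0.170, 0.511 and 0.290 CPM in Cu 1, Cu 2 and Cu 3, against 5.36, 4.35 and 3.12 CPM in Zn 1, Zn 2 and Zn 3. The log2 fold change came to -3.65 ± 0.46 (SE; edgeR adjusted p = 8.04e-05). Hg pools had 0.351 to 0.865 CPM, Cd pools 2.60 to 4.30 CPM and controls 2.25 to 4.34 CPM. Both named genes that were lower in Cu thus had Zn, Cd and control pools at overlapping levels, with the Cu and Hg pools below.

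**Figure D2:**
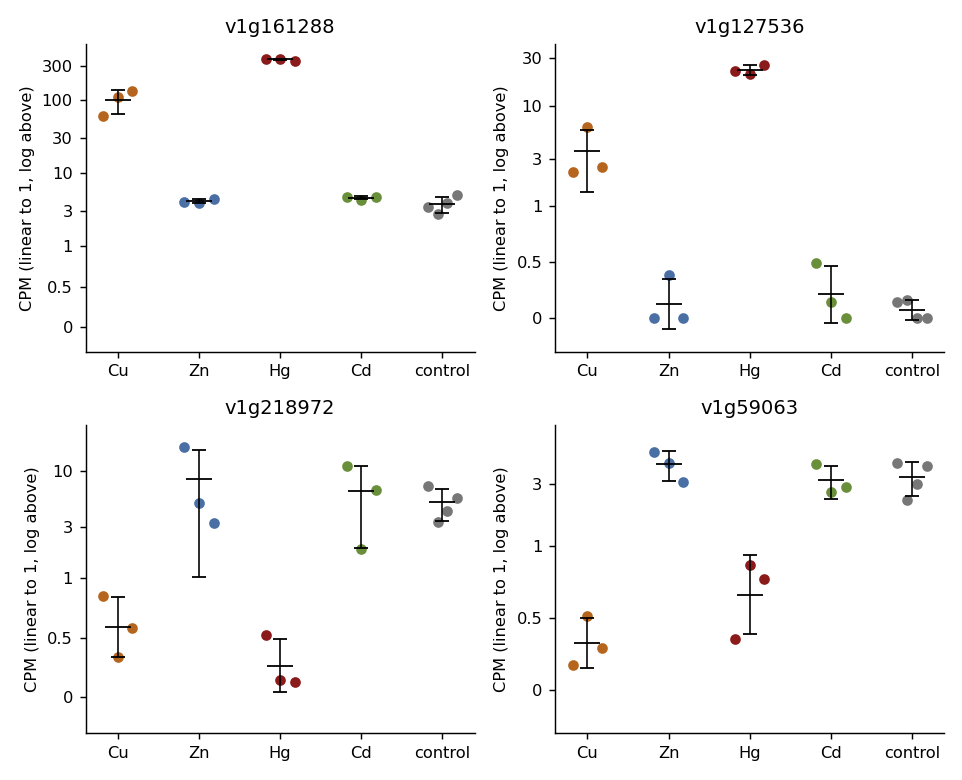
CPM (vertical axis, linear up to 1 and logarithmic above) of the 4 named genes in each library of the 5 groups, with points for libraries and bars for the mean and SD (n = 3, and 4 for control). In v1g161288 and v1g127536 the Cu and Hg pools lie above the Zn, Cd and control pools, and in v1g218972 and v1g59063 they lie below.

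The 10 libraries outside the contrast show where the called genes stood without either metal. In the 459 higher genes the median CPM was 49.0 in Cu pools and 26.6 in Zn pools, beside 82.5 in Hg pools, 28.1 in Cd pools and 28.7 in controls. The control mean lay nearer to the Zn mean than to the Cu mean in 423 of the 459 genes (92.2%), and the Cd mean did so in 440. In the 128 lower genes the medians were 17.2 CPM in Cu pools and 27.9 CPM in Zn pools, beside 15.3 in Hg, 24.8 in Cd and 24.0 in controls. Here controls lay nearer to Zn in 104 genes (81.2%). Genes called between Cu and Zn are picked for a high value in one and a low value in the other, so a control between them follows in part from that choice.

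The same was seen library by library. In the higher genes each of the 7 Cd and control libraries lay a median of 0.06 to 0.14 log2 units above the Zn mean, the Cu libraries 0.69 to 0.81 above and the Hg libraries 1.36 to 1.43 above. In the lower genes the Cd and control libraries lay 0.10 to 0.26 below the Zn mean, the Cu libraries 0.66 to 0.73 below and the Hg libraries 0.86 to 0.99 below. Among the 5 group means, Hg was the highest in 405 of the 459 genes and Cu in 53. Zn was the lowest in 263 of the 459. In the 128 lower genes Zn was the highest in 100, Hg the lowest in 84 and Cu the lowest in 44. The places of Cu and Zn follow in part from how these genes were chosen.

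**Figure D3:**
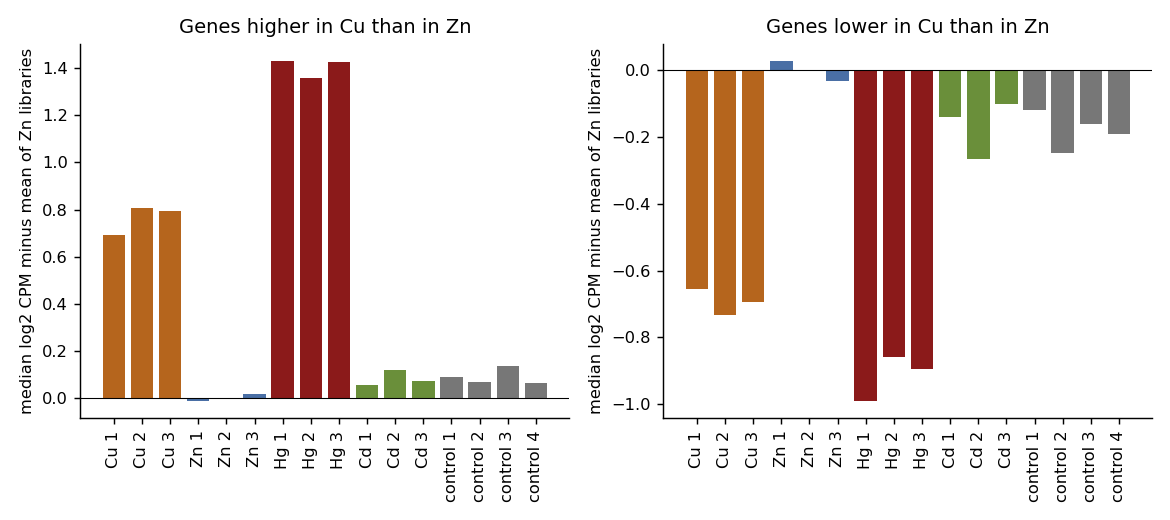
Median over the called genes of log2 CPM minus the mean of the 3 Zn libraries, for each of the 16 libraries (bars, coloured by group), with the 459 genes higher in Cu on the left and the 128 lower on the right. Cu bars reach 0.69 to 0.81 on the left, Hg bars 1.36 to 1.43, and the Cd and control bars 0.06 to 0.14.

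Each metal was also set against the controls. These comparisons share the control libraries with each other and the Cu or Zn libraries with the contrast, so their values are given side by side and no more. In the 459 higher genes the median log2 fold change against control was 0.66 in Cu and -0.10 in Zn, beside -0.02 and -0.01 over all tested genes. Of them 346 were called higher in Cu than in control, where 3.00% of all tested genes were. In Zn against control edgeR called 0 of them (background 0.00614% higher and 0.00% lower), and 75 had an unadjusted p under 0.05 (15 higher and 60 lower in Zn). DESeq2 called 3 of the 459 higher and 2 lower, against 6 and 3 of all 16276 tested genes. Of all tested genes 7.03% had an unadjusted p under 0.05 in Zn against control. A low Zn value is part of what chose the 459 genes. In the 128 lower genes the medians were -0.48 in Cu and 0.19 in Zn. Of these, 56 were called lower in Cu than in control (background 1.20%). In Zn against control edgeR called 0 and DESeq2 0, with 35 at an unadjusted p under 0.05, all 35 of them higher in Zn.

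The submitters tested the metals against control only. In the authors' deposited table for Cu, 232 of the 459 higher genes had an adjusted p under 0.05 and were above control (background 1.72%), and 25 of the 128 lower genes were below it (background 0.252%). In the authors' deposited table for Zn, 1 of the 459 was above control (background 0.0369%) and 2 were below (background 0.0123%), and 1 of the 128 was above. The median fold in the authors' deposited tables for the 459 genes was 1.59 in Cu and 0.938 in Zn, and for the 128 genes 0.719 in Cu and 1.14 in Zn.

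The contrast with zinc called 113 higher and 72 lower genes that the contrast of copper with control did not. In the 113 the median log2 fold changes were 0.36 in Cu against control and -0.26 in Zn against control, and in the 72 they were -0.37 and 0.26. In the 346 and 56 genes called in both, they were 0.76 and -0.05 for the higher genes and -0.84 and 0.05 for the lower genes. Genes called between Cu and Zn but not between Cu and control are picked for a Zn value on the far side of control, so the signs of these medians follow from the choice and are a description.

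Whether the Cu and Zn difference recurred elsewhere was read in mercury against control, which shares no library with it. Of the 459 genes higher in Cu, 421 (91.7%) were also called higher in Hg than in control, where 15% of all tested genes were. Of the 128 lower genes, 94 (73.4%) were also called lower in Hg, where 11.7% of all tested genes were (edgeR). As shares of the mercury lists these are 17.3% of 2439 genes and 4.96% of 1897 genes. The median log2 fold change of Hg over control was 1.31 in the higher genes and -0.77 in the lower ones, against -0.05 over all tested genes. It was above 0 in 97.2% of the higher genes and below 0 in 96.1% of the lower ones. In fits of only the groups compared, which share no estimate of spread, the overlaps with Hg were 450 of 531 and 94 of 142 genes.

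Mercury against cadmium, the pair of metals without a known nutritional role, also shares no library with copper against zinc. Of the 459 genes 422 were higher in Hg than in Cd (background 14.2%), and of the 128 genes 89 were lower (background 9.97%). The medians were 1.36 and -0.80 on the log2 scale. These values use the same Hg libraries as those against control and are not independent of them.

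In cadmium against control, which shares no library with the contrast either, the medians lay near 0. The log2 value was -0.02 in the 459 higher genes and 0.02 in the 128 lower genes. In the 459 genes edgeR called 2 higher (background 0.0184%), and 46 had an unadjusted p under 0.05 (of all tested genes, 7.03% did). DESeq2 called 5 of the 459 higher, against 18 of all 16276 tested genes. In the 128 genes edgeR and DESeq2 called 0, and 12 had an unadjusted p under 0.05.

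**Figure D4:**
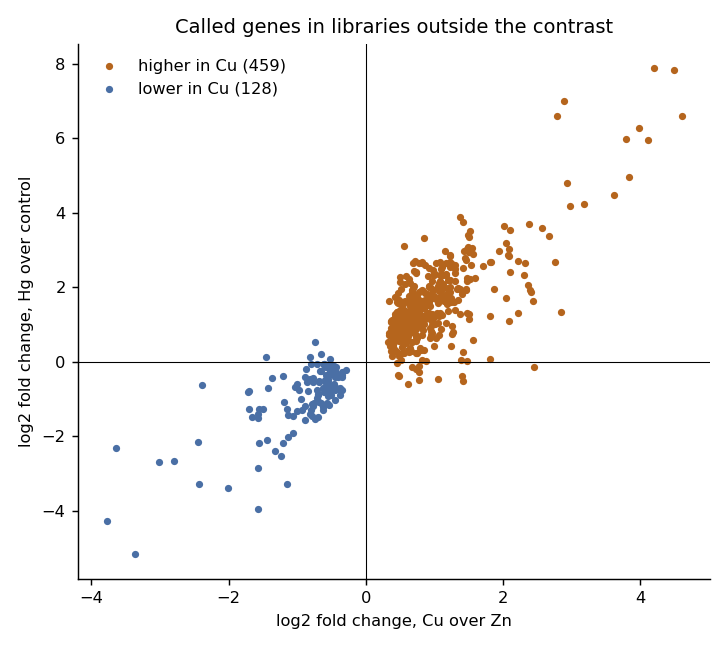
Log2 fold change of Hg over control (vertical axis) against that of Cu over Zn (horizontal axis) for the 459 genes called higher in Cu than in Zn and the 128 called lower; the axes share no library. Of the 459 genes 446 lie above 0 on the mercury axis, and of the 128 genes 123 lie below.

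Larger differences between Cu and Zn went with larger ones in mercury. Median log2 fold changes of Hg over control were 3.28 in the 36 genes at least 4-fold higher in Cu than in Zn, 1.97 in the 116 genes of 2 to 4-fold, 1.27 in the 176 genes of 1.5 to 2-fold and 0.95 in the 131 genes below 1.5-fold. Median levels in the 36 genes were 33 CPM in Cu and 3.92 CPM in Zn, beside 67.7 CPM in Hg, 4.38 CPM in Cd and 4.55 CPM in controls. Of the 36 genes 33 were called higher in Hg. In the 9 genes at least 4-fold lower in Cu the median log2 fold change in Hg over control was -2.68. Of the 9 genes 8 were called lower in Hg (background 11.7%). Median levels in the 9 genes were 0.590 CPM in Cu and 4.28 CPM in Zn, beside 0.421 CPM in Hg, 3.25 CPM in Cd and 3.43 CPM in controls.

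Some genes called between copper and zinc were not called in mercury against control, which does not show that mercury left them unchanged. In the uncalled higher genes the log2 fold change of Hg over control was -0.51 to 1.33 (median 0.20). In the uncalled lower genes it was -0.80 to 0.20 (median -0.20). Of the 459 higher genes 34 were not called in Hg against control, where 11940 of all 16276 tested genes were not. In 31 of the 34 the Cu mean exceeded the Hg mean. They were chosen for a high Cu value and no call in Hg, so this order follows in part from the choice. Median levels in the 34 genes were 22.6 CPM in Cu and 13.9 CPM in Zn, beside 20.3 CPM in Hg, 14.7 CPM in Cd and 17.2 CPM in controls. Of the 34 genes 11 were called higher in Cu than in control. In 4 further genes mercury went the other way, with log2 fold changes of -0.60 to -0.36 in Hg over control and 0.46 to 0.78 in Cu over Zn. Of the 128 lower genes 33 were not called in Hg, with median levels of 11.8 CPM in Cu and 17.8 CPM in Zn, beside 13.8 CPM in Hg, 16.5 CPM in Cd and 16.1 CPM in controls. One more gene was lower in Cu than in Zn and higher in Hg than in control.

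Read the other way round, genes were chosen in mercury against control and measured between copper and zinc, in other libraries. The filter, scaling and estimate of spread behind the choice came from a fit of all 16 libraries, Cu and Zn included. In the 2439 genes higher in Hg, Cu over Zn had a median of 0.25 on the log2 scale (middle 50% of genes 0.08 to 0.48), and 85.9% were above 0. In the 1897 genes lower in Hg the median was -0.20 (-0.37 to -0.06), and 82.7% were below 0. In the 11940 genes not called in Hg it was -0.04, and 43.3% were above 0. The shift extended to genes that were not called between Cu and Zn. In 2017 uncalled genes among those higher in Hg the median was 0.19 with 83.0% above 0, and in 1799 among those lower in Hg it was -0.19 with 82.0% below 0. Over all 16276 genes the correlation across genes, which are not independent replicates, was r = 0.32 (Spearman 0.42), with r = 0.70 in the highest, 0.59 in the middle and 0.05 in the lowest of 3 equal parts by CPM.

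The gradient was steady on the side of increase. Genes with a log2 fold change of Hg over control of 0.5 to 1 had a median of 0.20 in Cu over Zn, those of 1 to 2 a median of 0.46, those of 2 to 3 a median of 1.01 and those of 3 or more a median of 2.04. The shares called higher in Cu were 6.62%, 28.9%, 57.6% and 73.2%. On the side of decrease the medians were -0.18 for genes of -1 to -0.5 in Hg and -0.31 for those of -2 to -1. The 126 genes below -2 departed from this, with a median of 0.47, and Cu 3 decided that value. Without Cu 3 the median of the same 126 genes was -0.53, and it was 0.41 to 0.75 without any 1 of the other 5 libraries. These genes were scarce, with a median of 1.47 CPM over the Cu and Zn libraries. Pearson's r in the lowest part was 0.30 without Cu 3 and 0.01 to 0.06 without any 1 of the other 5 libraries, still below 0.55 in the middle and 0.69 in the highest part without Cu 3. Spearman's rho in the lowest part was 0.22 with all libraries and 0.26 without Cu 3. Of the 26 genes that were high in Cu 3 alone among the 6 libraries, 9 were called lower in Hg than in control (background 11.7%). At an unadjusted p under 0.05 (edgeR), 25 of them were lower in Hg than in control, 25 in Cd and 24 in Zn. Over all tested genes 37.3%, 7.03% and 7.03% reached that p in either direction. Between Hg and Cd 0 of the 26 did. 

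**Figure D5:**
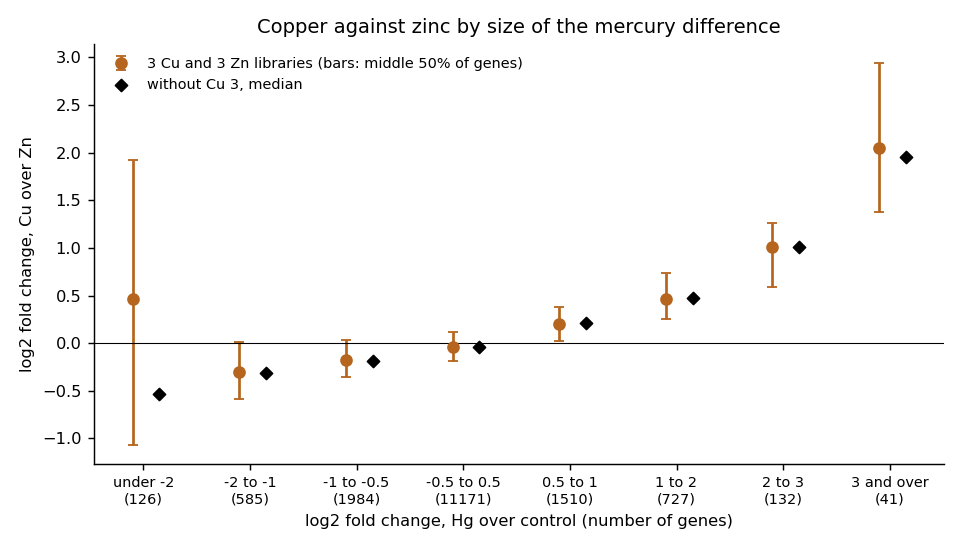
Median log2 fold change of Cu over Zn (vertical axis) in genes grouped by their log2 fold change of Hg over control (horizontal axis, number of genes in brackets), with bars for the middle 50% of genes and diamonds for the median without Cu 3. Medians rise to 2.04 in the group at 3 and over, and in the group below -2 the median is 0.47 with Cu 3 and -0.53 without it.

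Copper and zinc were each also set against cadmium pools, which avoids the control libraries that define the mercury lists. In the 2439 genes higher in Hg than in control the median log2 fold change was 0.20 in Cu over Cd and -0.03 in Zn over Cd, and 83.4% and 41.3% of genes were above 0. In the 1897 lower genes the medians were -0.16 and 0.03, and 78.3% and 41.9% were below 0. Of the 2439 genes 337 were called higher in Cu than in Cd (background 2.16%), and of the 1897 genes 50 were called lower and 2 higher (background 0.375% lower). Between Zn and Cd neither tool called a gene (edgeR 0 and DESeq2 0 of 16276), with 599 (3.68%) at an unadjusted p under 0.05. Both comparisons use the same Cd libraries.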

How the data were processed

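RNA from whole anemones was sequenced from TruSeq mRNA libraries, per the labels' protocols. The authors deposited raw counts per gene model as whole numbers, in a table per metal with the same 4 control columns, used once here. Their fold changes (a ratio of base means) and adjusted p-values against control stand in the same deposited tables. STAR, Partek and DESeq are named, without version or role, in the submitters' processing notes. For strand, genome build and batch nothing is given in the sources used here.

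Counts were analysed with edgeR 4.0.16 in R 4.3.3. The default filterByExpr rule kept 16276 genes. All 16 libraries entered one TMM-scaled robust quasi-likelihood fit with a term per group and one shared estimate of spread, and Cu was contrasted with Zn (Benjamini-Hochberg adjusted p under 0.05). The SE is the log2 fold change divided by the square root of F. Log2 CPM used a prior count of 2. The fit was also run on simulated counts without structure by replicate number, and no result given here rests on that run. DESeq2 1.42.0 and other settings were alternatives. Replicates are separate pools, per the labels. All p-values thus rest on the spread among pools. Intervals cover counting error only.

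Named genes were the 2 each way with the largest log2 fold change among called genes whose groups do not overlap and whose higher group averages 1 CPM or more. The comparison, this rule and the alternatives were chosen with earlier results of these data known. Gene lists and cell type markers written by symbol could not be read, because identifiers have no names.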

Additional observations from a re-analysis of the deposited data

How the results depend on the processing

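The counts of 459 higher and 128 lower genes stayed within 1.5 times under DESeq2 (554 and 151), DESeq2 size factors (484 and 120), no filter on low counts (489 and 91), a filter of 1 CPM in 3 libraries (469 and 117) and a fit of only the 2 groups compared (531 and 142). The counts also called in Hg, 421 and 94, stayed within 1.5 times under these 5 settings. As shares they fell in the fit of only the 2 groups compared, to 450 of 531 and 94 of 142. The counts moved to 85 and 6, and to 79 and 5 also called in Hg, in the test for a minimum difference of 1.5-fold. That test by its construction calls fewer genes. Without both Cu 3 and Zn 3 the counts were 237 and 38, and 225 and 29 also called in Hg, with fewer samples. Leaving out 1 Cu or Zn library gave 288 to 379 higher and 50 to 86 lower genes, of which 273 to 356 and 35 to 69 were also called in Hg. With the replicate number as a block 399 genes were higher and 106 lower (566 and 171 with only the groups compared). Of these, 358 and 76 were also called in Hg (429 and 87 with only the groups compared). No batch is given, and whether the numbers pair the libraries was not tested. Deviations from group means correlated at 0.07, 0.15 and 0.26 for pairs 1, 2 and 3, and at -0.19 to 0.06 for unlike numbers. Each library thus correlated best with its own number. Of the named genes, v1g218972 was not called in a fit of only the groups compared (adjusted p = 0.0944), in the test for 1.5-fold (0.0948) or without Cu 3 and Zn 3 (0.0525), beside the pools named above. The others were called under all settings that gave an adjusted p; DESeq2 gave v1g59063 none. Among the scarcest genes 0.59% were called higher, against 5.51% of the most abundant; the part of depth in this was not tested.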

Other observations

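Genes called in Cu against control were also read in Cu against Zn, which shares the Cu libraries. Of 488 genes called higher in Cu than in control 346 (70.9%) were called higher in Cu than in Zn (background 2.82%), and of 195 called lower 56 (28.7%) were called lower (background 0.786%). In the 142 and 139 genes called against control alone, the median log2 fold changes of Cu over Zn were 0.35 and -0.38. The difference between these shares was not tested.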
